A study of Mus musculus with 36 samples.

Results

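The 40 genes described here make up the working set of the mouse lysosome. They include 12 proteases (mainly cathepsins) and 11 hydrolases of sugar chains and sulphates. The others are 8 proteins grouped as lipid handling, Ppt1 and Grn among them, 6 membrane proteins and 3 parts of the proton pump. The set is a list of gene names, drawn up with earlier results of these data known. No measured value decides membership, but the probe that stands for a gene is its brightest. All 40 were found among the 18089 genes measured, and the brightest probe of each was well above background on all arrays, with 1 value missing. RNA came from mouse monocytes and from macrophages grown from them, in 12 groups with 3 arrays each, on 36 one-colour Agilent arrays in all. The labels number the 3 arrays of a group as series but do not say that they came from separate animals or cultures, so each p-value reflects the spread among arrays alone, which may be technical.

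All groups but Mreg_unpurified began as bone marrow monocytes sorted by flow cytometry as CD11b+ Ly6C+ Ly6G-, and the mouse strain and age are not given in the sources used here. Regulatory macrophages (Mreg) grew with 10% fetal calf serum, 10% human AB serum and 5 ng/ml M-CSF, the growth factor that turns monocytes into macrophages, and were given 25 ng/ml interferon-γ (IFN-γ) for the last 24 h of 7 days. A further 3 groups used this medium: Mreg_+LPS received 100 µg/ml of the bacterial product lipopolysaccharide (LPS) along with IFN-γ, Mreg_unpurified was treated like Mreg but began as adherent mononuclear cells of bone marrow, spleen and blood, and Mreg_no IFN-γ received no stimulus. The other macrophages grew with 10% fetal calf serum and 20 ng/ml M-CSF. Of these, MΦ_M1 received 25 ng/ml IFN-γ with 100 µg/ml LPS, MΦ_M2b received IFN-γ on dishes coated with complexed human immunoglobulin, MΦ_M2a received 20 ng/ml interleukin-4 (IL-4), MΦ_M2c received the glucocorticoid dexamethasone, MΦ_IFN-γ received IFN-γ alone and MΦ_M0 received nothing. Mo-DC grew with 10% fetal calf serum, and with 20 ng/ml GM-CSF and 20 ng/ml IL-4 in place of M-CSF, and then received IFN-γ. All cultures lasted 7 days, and every stimulated group, Mo-DC with IFN-γ included, was stimulated for 24 h. IFN-γ was at 25 ng/ml in each group given it. Monocytes were the sorted cells, not cultured.

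Lysosomes are acid compartments in which a macrophage degrades what it takes up. A rotary proton pump in their membrane lowers the pH, soluble hydrolases then cut proteins, sugar chains and lipids, and heavily glycosylated membrane proteins line the compartment and carry products out. Many lysosomal genes hold the E-box CACGTG near their start, and its longer form GTCACGTG is the core of the element to which the transcription factor TFEB binds.

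RefSeq promoters (GRCm38.p6, 250 bases before to 50 after each start, searched on both strands) were at hand for 34 of the 40 members. CACGTG was found in 11 of the 34 members (32.4%), against 8.09% of all genes in the same table. GTCACGTG, each copy of which also holds CACGTG, was found in 7 of the 34 members (20.6%), against 2.55% of all genes. Another motif searched, TTCNNNGAA (N, any base), was found in 2 of the 34 members (5.9%), against 9.55% of all genes. The windows printed here belong to members on which the results turn or which hold the most copies, and the capitals mark the motif. Those with CACGTG are, on GRCm38.p6, Lamp1 (chr8:13159075-13159160, plus strand), Mcoln1 (chr8:3500423-3500504, plus strand), Ctsd (chr7:142387895-142387950, minus strand), Sgsh (chr11:119355511-119355564, minus strand), Atp6v1a (chr16:44139360-44139415, minus strand) and Ctsf (chr19:4855061-4855116, plus strand). Lamp1 held 4 copies in its window and Mcoln1 held 2.
Lamp1: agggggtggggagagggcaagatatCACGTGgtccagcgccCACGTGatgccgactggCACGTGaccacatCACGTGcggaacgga
Mcoln1: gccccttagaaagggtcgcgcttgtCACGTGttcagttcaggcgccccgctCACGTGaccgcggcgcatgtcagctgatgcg
Ctsd: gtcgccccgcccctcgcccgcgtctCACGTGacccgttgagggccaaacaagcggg
Sgsh: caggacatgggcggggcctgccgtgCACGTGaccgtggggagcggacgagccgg
Atp6v1a: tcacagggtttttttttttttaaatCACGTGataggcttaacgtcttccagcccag
Ctsf: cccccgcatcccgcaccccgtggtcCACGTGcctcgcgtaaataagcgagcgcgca
These are matches of letters within the windows, not measured binding sites.

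Levels are log2 of the signal minus log2 of the same array's 75th percentile of signal, so a level of 0 is a probe as bright as that percentile, and levels are compared between groups for the same gene only. That percentile lay between 338.2 and 696.3 intensity units, 50.1% to 57.5% of probes were well above background on an array, and no spot was saturated. The arrays lay on 9 slides of 4 arrays, scanned on 2 days. Monocytes, MΦ_M0, MΦ_M1 and MΦ_M2a shared slides, as did MΦ_M2b, MΦ_M2c, MΦ_IFN-γ and Mo-DC, and as did the 4 Mreg groups. Comparisons across these blocks therefore compare different slides. The macrophage markers fixed for this work were above background on all arrays of every cultured group in 7 or 8 of 8 cases. This held for 7 of 8 on the Monocytes arrays too, so it does not set the cultured cells apart. Markers of T and NK cells, of B cells and of stromal or endothelial cells summed to at most 5.03 times the 75th percentile in any array, over lists of 6 or 7 genes.

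Over the 12 groups, the highest group mean of a member exceeded its lowest by 1.06 (Grn, the progranulin gene) to 5.71 (Ctsl, cathepsin L) on the log2 scale, with a median of 2.88 and 18 members above 3. The median spread between arrays of a group was 0.14 (SD, log2). Monocytes held the lowest mean of 30 of the 40 members, and they did so with the arrays scaled at the 75th percentile, quantile normalized or left unscaled. The group with the most members at their highest depended on the scaling: Mreg_+LPS held 21 with the 75th percentile but 6 after quantile normalization, while MΦ_M2c held 7 and 14. The heat map of group means shows the mostly blue column of Monocytes beside 11 cultured groups that differ from each other gene by gene.

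**Figure D1:**
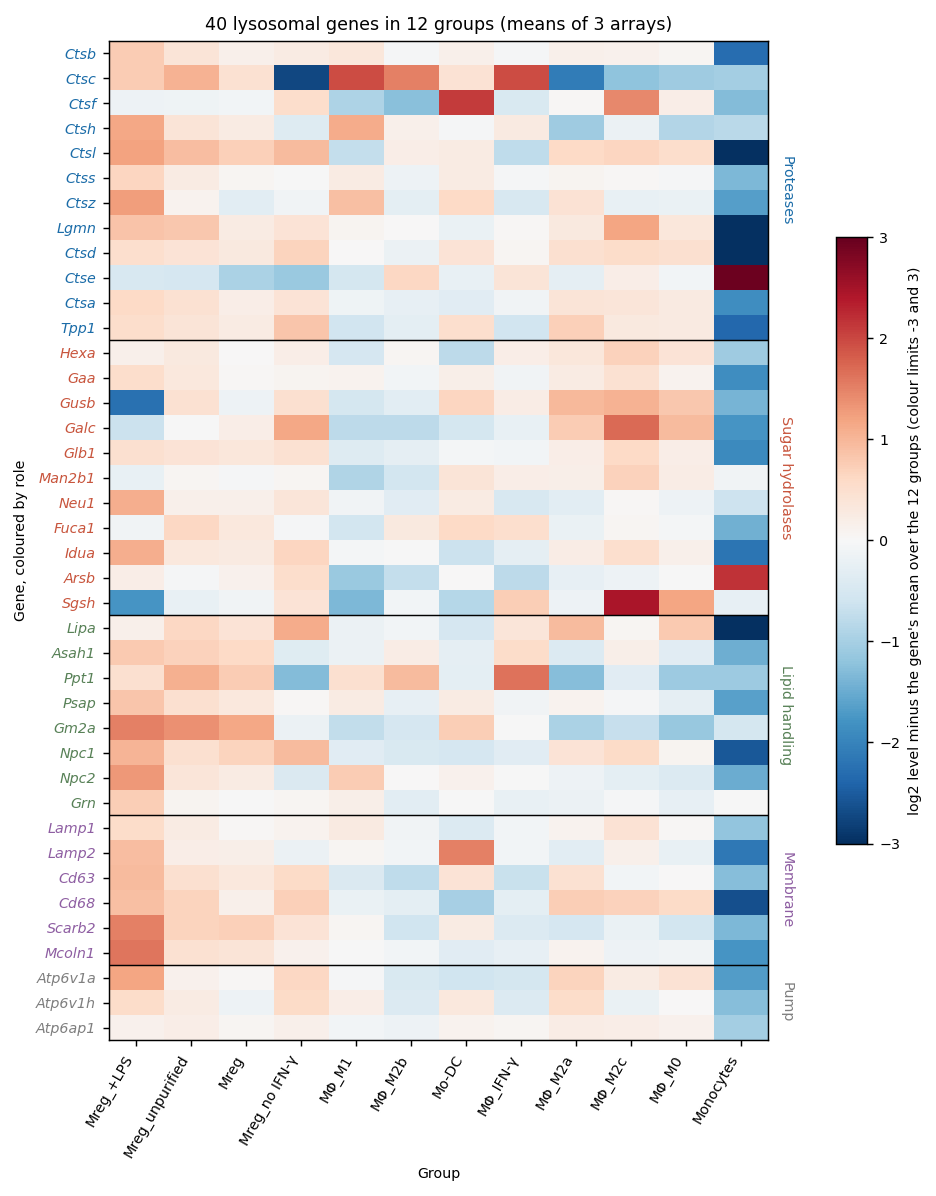
Mean log2 level of each of the 40 members (rows, grouped by role) in the 12 groups (columns, 3 arrays each), as the difference from the gene's mean over the groups, with colours limited to -3 and 3. Monocytes are lowest for 30 of 40 members, and Ctse and Arsb are highest there.

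The members did not move as 1 block among the cultured cells. Across the 12 group means, the correlation between 2 members had a median of 0.57 over the 780 pairs, with 18.7% of pairs below 0. Over the 11 cultured groups it had a median of 0.30, with 30.8% of pairs below 0, and pairs within a role (median 0.34) were little different from pairs across roles (median 0.28). These correlations are descriptions, since all points share the same arrays and scaling.

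When monocytes became unstimulated macrophages in M-CSF, lysosomal genes of every role were higher. In MΦ_M0 against Monocytes, 33 of the 40 members rose and 2 fell, where 63.5% of all genes changed (29.9% rose and 33.5% fell), all at an adjusted p under 0.05 in limma. The same 35 were called after quantile normalization, where 65.2% of all genes changed. Gm2a was called there too, as lower (-0.54, log2; adjusted p = 0.038 in limma). The members' median log2 difference was 1.45, against -0.08 for all genes tested, and 30 members rose at least 2-fold. In these bulk samples, fewer cells of a type and less RNA per cell cannot be told apart.

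Among the proteases, 9 of 12 rose and 1 fell. Cathepsin L, an endopeptidase that also processes antigen and the invariant chain, had levels of 8.90, 9.03 and 9.02 in MΦ_M0, against 3.45, 4.23 and 4.24 in Monocytes. The groups lay far apart, a difference of 5.01 ± 0.23 (SE, log2), or 32.2-fold (adjusted p = 2.2e-16). Legumain (Lgmn), which cuts after asparagine and matures other cathepsins, had 6.31, 6.72 and 6.74 in MΦ_M0, against 1.75, 2.08 and 2.70 in Monocytes, 21.3-fold higher (adjusted p = 3.8e-16). Cathepsin D, the main aspartic protease, had 9.45, 9.49 and 9.41 in MΦ_M0, against 5.38 and 5.22 in 2 Monocytes arrays, its spot on the array of Monocytes replicate 1 having been set aside as an outlier, and was 17.7-fold higher (adjusted p = 1.1e-18). The tripeptidyl peptidase gene Tpp1 rose 6.15-fold and Ctsb, cathepsin B, rose 5.08-fold, while the smallest of the called rises was that of Ctss, the cathepsin that frees class II molecules of the invariant chain, at 2.49-fold. Cathepsin E, an aspartic protease of endosomes, was the exception among the proteases, with -3.73, -3.57 and -3.45 in MΦ_M0, against -0.33, -0.55 and -0.84 in Monocytes. It fell by 3.01 ± 0.18 (SE, log2; adjusted p = 3.4e-14), and no array of either group reached the other. Ctsc and Ctsh did not pass the test.

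Among the 11 sugar hydrolases, 10 rose and 1 fell. Galc, which removes galactose from myelin lipids, rose 6.65-fold, Idua, the iduronidase of glycosaminoglycans, rose 5.08-fold, and Gusb, the β-glucuronidase, rose 4.61-fold. Arsb, a sulphatase of dermatan sulphate, had -0.81, -0.98 and -0.95 in MΦ_M0, against 1.67, 1.47 and 0.67 in Monocytes, and fell by 2.18 ± 0.22 (SE, log2; adjusted p = 2.0e-09). The 3 Monocytes arrays were all above the 3 of MΦ_M0. Of the genes grouped as lipid handling, 5 of 8 rose. Lipa, the acid lipase that frees cholesterol from its esters, had 5.69, 5.74 and 5.52 in MΦ_M0, against 1.07, 1.05 and 1.40 in Monocytes, 22.3-fold higher (adjusted p = 1.5e-19). Npc1, the membrane protein that passes that cholesterol on, rose 6.15-fold, and its soluble partner Npc2 rose 2.13-fold. Ppt1, Gm2a and Grn did not pass the test.

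All 6 membrane proteins rose, by 1.73-fold for Scarb2, the receptor that carries β-glucocerebrosidase to the lysosome, up to 9.24-fold for Cd68, a mucin-like protein used as a macrophage marker. Lamp1 and Lamp2, the main glycoproteins of the lysosomal coat, rose 2.35-fold and 3.75-fold, but 1 of the other 2 Lamp2 probes was slightly lower. All 3 proton pump genes rose, Atp6v1a, the catalytic subunit, the most with 4.30-fold. All 35 called members moved in the same direction on all slides that measured it. Other probes of the called members moved the same way in 22 of 24 cases, the exceptions belonging to Atp6v1h and Lamp2. When single arrays were left out in turn, only Man2b1, the lysosomal α-mannosidase, lost its call (without any of 5 of them), which leaves 34.

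After growth in the Mreg medium without IFN-γ, most members were higher too. In Mreg_no IFN-γ against Monocytes, 33 members rose and 3 fell, where 67.3% of all genes changed (34.0% rose and 33.4% fell), and 69.3% after quantile normalization with the same 36 members called. The members' median difference was 1.79, against 0.01 for all genes. Lipa, with 6.14, 5.90 and 5.86 in Mreg_no IFN-γ and the Monocytes levels already given, was 27.7-fold higher (adjusted p = 2.9e-20), Ctsl was 43.5-fold higher and Npc1 11.2-fold higher. Ctse fell by 4.04 and Arsb by 1.65 (log2). Ctsc, cathepsin C or dipeptidyl peptidase I, which activates the serine proteases of granules, had 3.20, 2.71 and 3.36 in Mreg_no IFN-γ, against 4.87, 4.66 and 4.89 in Monocytes, and fell by 1.72 ± 0.23 (SE, log2; adjusted p = 1.9e-07). Both comparisons use the same Monocytes arrays. The plot of differences against Monocytes shows both sets of values beside each other.

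**Figure D2:**
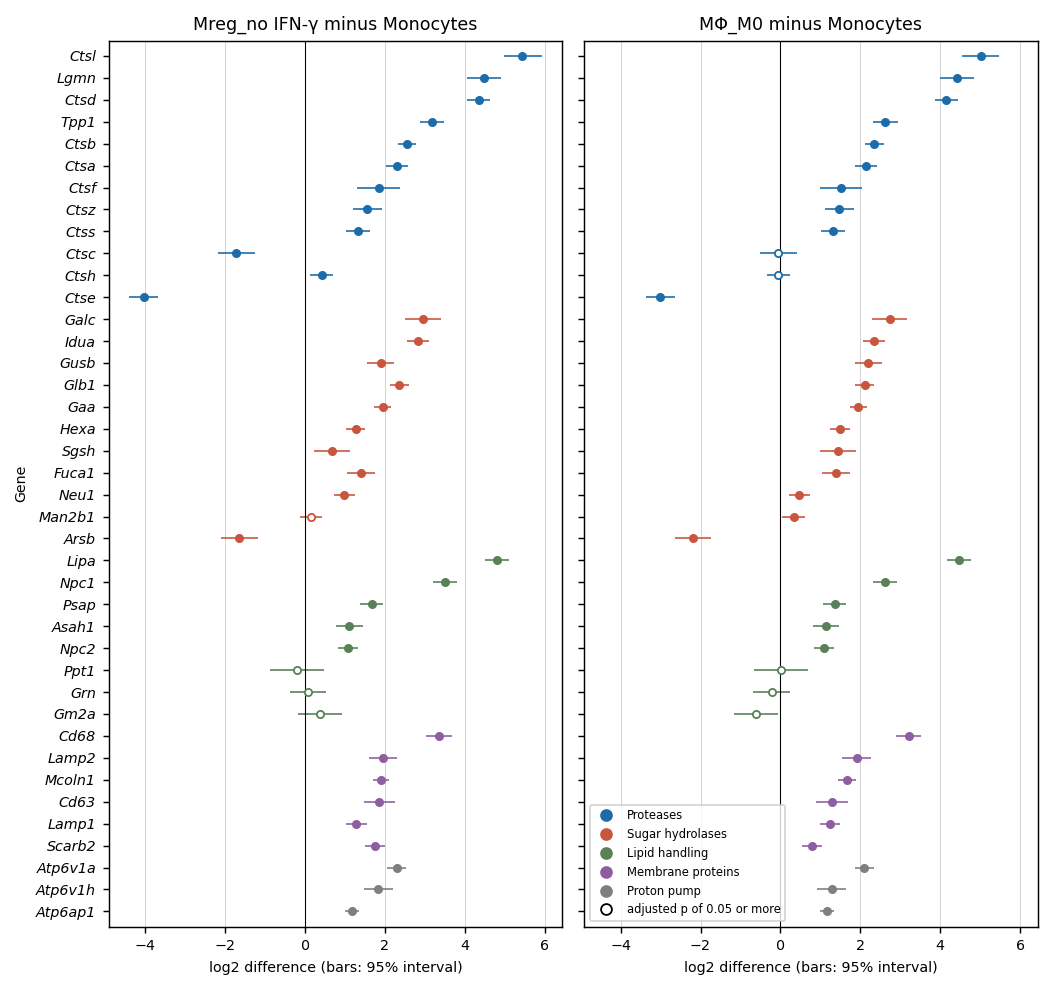
Log2 difference from Monocytes of each member (rows) in Mreg_no IFN-γ (left) and MΦ_M0 (right), with 95% intervals from limma and colours for roles. Filled points passed an adjusted p of 0.05: 33 higher and 3 lower on the left, 33 higher and 2 lower on the right, with Ctsl and Lipa farthest to the right and Ctse farthest to the left.

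Other cell markers moved in the same 2 comparisons. The 8 neutrophil markers, all above background in Monocytes, summed to between 1.42 and 2.35 times the 75th percentile on the Mreg_no IFN-γ arrays and between 3.07 and 4.29 on the MΦ_M0 arrays, against 3034 to 3765 on the Monocytes arrays. Of the 8, 5 were above background on no Mreg_no IFN-γ array and 2 on no MΦ_M0 array. The 5 monocyte markers summed to 3.65 to 18.2 in Mreg_no IFN-γ and 8.52 to 11.2 in MΦ_M0, against 494 to 615 in Monocytes. The 8 macrophage markers, of which Cd68 is itself a member, summed to 393 to 528 in Mreg_no IFN-γ and 607 to 686 in MΦ_M0, against 69.9 to 122 in Monocytes. Their part in the differences was not tested. A further 54 lysosomal genes were listed with earlier results of these data known. Of these 54, 38 rose and 5 fell in MΦ_M0 against Monocytes, where 29.9% of all genes rose and 33.5% fell. In Mreg_no IFN-γ against Monocytes 41 rose and 5 fell, where 34.0% of all genes rose and 33.4% fell.

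Between the culture media compared without a stimulus, the share of members that changed was close to that of all genes. In Mreg_no IFN-γ against MΦ_M0, 9 of the 40 members rose and 3 fell, where 31.0% of all genes changed (17.6% rose and 13.4% fell). After quantile normalization 5 rose and 5 fell (31.4% of all genes), with no scaling between arrays, an alternative chosen after seeing the data, 3 rose and 6 fell, and 8 were called with both of the first 2 scalings. Of these, Scarb2 had 4.63, 4.98 and 4.53 in Mreg_no IFN-γ, against 3.66, 3.76 and 3.82 in MΦ_M0, 1.95-fold higher (adjusted p = 9.6e-07), Npc1 was 1.83-fold higher, and Gm2a, the cofactor that presents GM2 ganglioside to hexosaminidase, was 1.96-fold higher. Idua and Atp6v1h, a regulatory subunit of the proton pump, were also higher with both scalings, but a dim Atp6v1h probe went the other way, while 6 of 7 other probes of the called members went the same way. Ctsc fell by 1.66 (adjusted p = 2.9e-06) against MΦ_M0 levels of 4.71, 4.92 and 4.63, Ctse by 1.03 and the heparan sulphatase Sgsh by 0.76 (log2). When single arrays were left out in turn, 4 of the 12 calls were lost at least once (Atp6v1h, Cd63, Ctsh and Sgsh). The 8 macrophage markers summed to 393 to 528 in Mreg_no IFN-γ, against 607 to 686 in MΦ_M0. Of these 8, 0 were called higher and 4 lower in limma, and their part was not tested.

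IFN-γ raised some members and lowered others, and the split between them depended on the processing. In MΦ_IFN-γ against MΦ_M0, 7 members rose and 13 fell, where 22.0% of all genes changed (10.6% rose and 11.4% fell). After quantile normalization 7 rose and 17 fell (23.2% of all genes), and 18 of the 20 calls were shared. With normexp background correction 8 rose and 7 fell (19.8% of all genes). The members' median difference was -0.25, against -0.02 for all genes. Ctsc had 7.85, 7.73 and 7.72 in MΦ_IFN-γ, against 4.71, 4.92 and 4.63 in MΦ_M0. This is a difference of 3.01 ± 0.23 (SE, log2), or 8.08-fold (adjusted p = 1.2e-10), with no overlap. Ppt1, the thioesterase that removes palmitate from proteins, had 6.90, 6.71 and 6.17 in MΦ_IFN-γ, against 3.81, 3.96 and 3.87 in MΦ_M0, 6.56-fold higher (adjusted p = 4.7e-07), and each of its 4 probes was higher. Cathepsin H, an aminopeptidase, rose 2.19-fold, Gm2a 2.18-fold and the acid ceramidase gene Asah1 1.84-fold, all with no overlap between groups. Fuca1, the α-fucosidase, and Npc2 rose by less than 1.5-fold.

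The members lowered by IFN-γ came from every role. Ctsl had 7.33, 7.74 and 8.03 in MΦ_IFN-γ, against 8.90, 9.03 and 9.02 in MΦ_M0, and fell by 1.28 ± 0.23 (SE, log2; adjusted p = 1.2e-04). Galc had -1.68, -1.50 and -1.18 in MΦ_IFN-γ, against -0.33, -0.27 and -0.25 in MΦ_M0, and fell by 1.17 (adjusted p = 1.6e-04). Both genes were lower on all 3 MΦ_IFN-γ arrays than on any MΦ_M0 array. Atp6v1a fell by 0.97, Cd68 by 0.86, Tpp1 by 0.84, Arsb by 0.77 and the tetraspanin gene Cd63 by 0.68 (log2). The other 6 (Ctsd, Ctsa, Gusb, Idua, Lipa and Npc1) fell by 0.39 to 0.58. These groups lie on different slides. All 15 other probes of the called members moved the same way, and 13 of the 20 calls held when single arrays were left out in turn, the 7 lost being Ctsa, Ctsd, Fuca1, Idua, Lipa, Npc1 and Npc2. With the slide as a random block, Lipa lost its call (adjusted p = 0.055). The 5 monocyte markers summed to 50.6 to 61.6 in MΦ_IFN-γ, against 8.52 to 11.2 in MΦ_M0, and the macrophage markers to 710 to 750 in MΦ_IFN-γ, against 607 to 686 in MΦ_M0. Of the 8 macrophage markers, however, 0 were called higher and 2 lower in limma, with a median log2 difference of 0.40. Of the 5 monocyte markers, 3 were called higher and 1 lower. The part of either list was not tested.

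In the Mreg medium, IFN-γ was measured on shared slides and in other arrays. In Mreg against Mreg_no IFN-γ, 6 members rose and 8 fell, where 20.2% of all genes changed (9.42% rose and 10.8% fell). After quantile normalization 7 rose and 7 fell (21.0%), and with normexp background correction 7 rose and 6 fell (12.5%). Ctsc had 6.78, 5.60 and 6.44 in Mreg, against 3.20, 2.71 and 3.36 in Mreg_no IFN-γ, a difference of 3.18 ± 0.23 (SE, log2), or 9.08-fold (adjusted p = 4.0e-11). Ppt1 had 6.41, 5.05 and 5.72 in Mreg, against 3.77, 3.43 and 3.78 in Mreg_no IFN-γ, 4.18-fold higher (adjusted p = 3.6e-05). For both genes the lowest Mreg array was that of replicate 2, still above all Mreg_no IFN-γ arrays. Gm2a had 5.69, 5.61 and 5.25 in Mreg, against 4.16, 4.44 and 3.99 in Mreg_no IFN-γ, 2.50-fold higher (adjusted p = 5.7e-04). Asah1 rose 1.92-fold, Npc2 1.58-fold and Ctsh 1.57-fold. The 8 members that fell were Galc (by 0.97), Atp6v1h (0.71), Lipa (0.70), Gusb (0.66), Tpp1 (0.59), Atp6v1a (0.59), Cd68 (0.58) and Ctsd (0.39, all log2). All 14 moved in the same direction on each of the 3 slides, all 13 other probes did too, and only Cd68, Ctsd and Tpp1 lost their call without some single array.

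The size of the IFN-γ response did not differ detectably between the media for any member. The interaction contrast of limma called 0 of the 40, where 1.55% of all genes were called (1.18% higher and 0.376% lower), and 0 after quantile normalization (1.71%). At an unadjusted p under 0.05 there were 4 (Atp6v1a, Ctsh, Ctsl and Mcoln1), and the lowest adjusted p was 0.12. Ctsl differed most, by 1.03 ± 0.33 (SE, log2; adjusted p = 0.12): in Mreg, with a mean of 9.17 ± 0.24, against 9.42 ± 0.14 in Mreg_no IFN-γ (SD, n = 3 each), its difference was -0.25 (adjusted p = 0.53), while in the other medium it was the fall of 1.28 already given. With the replicate number as a block, Ctsl alone was called (adjusted p = 0.043), and its adjusted p lay between 0.041 and 0.36 over all alternatives. A p that misses the threshold does not show that the responses were alike. The plot of the 2 responses places most members near the line of equal difference, with Ctsl above it.

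**Figure D3:**
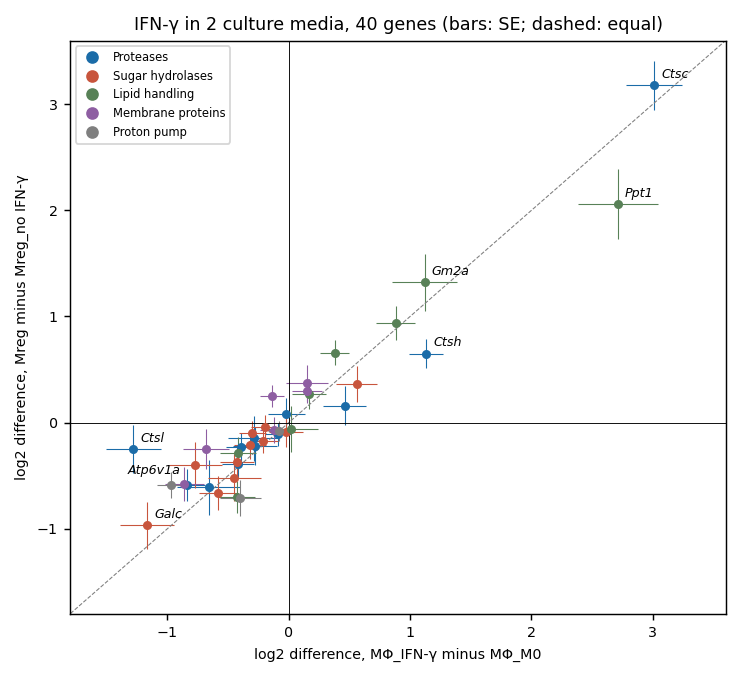
Log2 difference with IFN-γ of each of the 40 members in the M-CSF medium (x axis, MΦ_IFN-γ minus MΦ_M0) and in the Mreg medium (y axis, Mreg minus Mreg_no IFN-γ), with SE bars, colours for roles and a dashed line of equality. Ctsc and Ppt1 lie far to the upper right and Galc to the lower left, and Ctsl falls by 1.28 on the x axis and by 0.25 on the y axis.

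Under IFN-γ, the 2 media still differed. In Mreg against MΦ_IFN-γ, 14 members rose and 4 fell, where 27.5% of all genes changed (14.6% of all genes rose). After quantile normalization 12 rose and 6 fell (28.8%). These groups share their arrays with the IFN-γ comparisons. Of the 6 membrane proteins, 4 rose and 0 fell. Scarb2 had 4.92, 5.25 and 4.86 in Mreg, against 3.91, 3.91 and 3.88 in MΦ_IFN-γ, 2.16-fold higher (adjusted p = 1.4e-07), and Cd63 was 2.00-fold higher. Mcoln1, the calcium channel of the lysosomal membrane, was 1.54-fold higher. Ctsl was 2.76-fold higher (adjusted p = 2.2e-05), Gm2a 2.25-fold and Npc1 2.00-fold. Ctsc fell by 1.49 (adjusted p = 1.4e-05), Ctse by 1.33, Ppt1 by 0.87 and Sgsh by 0.83 (log2). The arrays of Ppt1 overlapped, another of its probes went the other way, and its call was lost without 1 of 4 single arrays. Over the called members 12 of 14 other probes went the same way, the other exception belonging to Glb1. The calls of Cd68, Glb1 and Psap were also lost without some single array, so that 14 of the 18 held, and with the slide as a random block Cd68 had an adjusted p of 0.055. The 5 monocyte markers summed to 1.60 to 6.30 in Mreg, against 50.6 to 61.6 in MΦ_IFN-γ, with 1 called higher and 4 lower in limma. The 8 macrophage markers summed to 412 to 609 in Mreg, against 710 to 750 in MΦ_IFN-γ, with 1 called higher and 2 lower. The part of either list was not tested.

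**Figure D4:**
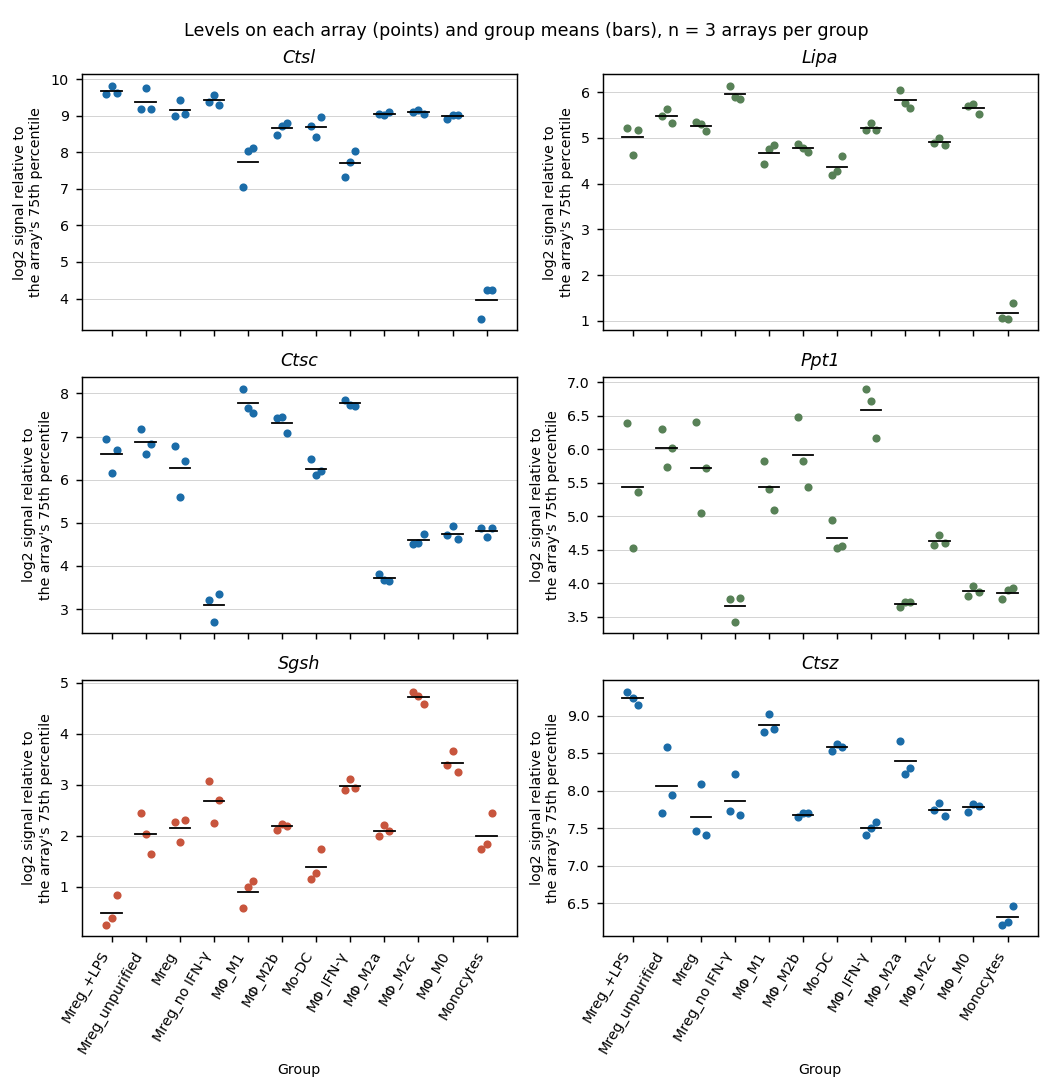
Log2 level on each array (points) and group mean (bars) of 6 members in the 12 groups, each panel on its own axis. Ctsl and Lipa are lowest in Monocytes, Ctsc is above its 3 MΦ_M0 arrays on every array of the groups given IFN-γ, and Sgsh is low and Ctsz high in Mreg_+LPS and MΦ_M1.

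LPS lowered some hydrolases and raised Ctsz and the proton pump gene Atp6v1a in both media, with the 75th percentile and with quantile normalization. The direction of many other members rested on how arrays were scaled. The pump gene Atp6ap1 was called in neither medium with the 75th percentile. After quantile normalization it was lower in MΦ_M1 against MΦ_IFN-γ (-0.38, log2; adjusted p = 0.0028 in limma). It was also lower in Mreg_+LPS against Mreg (-0.40, log2; adjusted p = 0.0016). In MΦ_M1 against MΦ_IFN-γ, 10 members rose and 12 fell with the 75th percentile (50.6% of all genes changed, 26.9% higher and 23.7% lower), but 5 rose and 17 fell after quantile normalization (49.8%) and 3 rose and 19 fell with no scaling. All genes had a median difference of 0.10, -0.01 and -0.28 with these 3. Both called the same 5 higher (Ctsz, Ctsh, Npc2, Atp6v1h and Atp6v1a) and the same 11 lower. Ctsz, cathepsin Z, a carboxypeptidase, had 8.78, 9.02 and 8.83 in MΦ_M1, against 7.41, 7.51 and 7.59 in MΦ_IFN-γ, 2.59-fold higher (adjusted p = 2.7e-07). Its log2 difference was 1.38, and 0.83 after quantile normalization.

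Sgsh led the members that fell. It had 0.58, 0.99 and 1.12 in MΦ_M1, against 2.89, 3.12 and 2.93 in MΦ_IFN-γ, and fell by 2.08 ± 0.22 (SE, log2; adjusted p = 9.7e-09), or by 2.13 after quantile normalization. The groups did not overlap. Ppt1 fell by 1.15, Man2b1 by 1.12, Fuca1 by 1.06, Ctse by 0.90, Gusb by 0.75, Gm2a by 0.73, Asah1 by 0.72, Hexa, the α subunit of hexosaminidase, by 0.70, Lipa by 0.54 and Glb1, the acid β-galactosidase, by 0.30 (log2). Of the 11 sugar hydrolases, 7 thus fell and 1 rose with the 75th percentile. Of the 22 calls, 6 were lost without some single array (Galc, Glb1, Gm2a, Lamp1, Neu1 and Psap). The groups lie on different slides. Of the other probes of the called members, 18 of 20 went the same way: a second probe of Ctsb fell by 0.91 where its brightest rose by 0.38, and a second probe of Lipa was higher by 0.06 where its brightest fell by 0.54. The monocyte markers summed to 26.2 to 34.4 in MΦ_M1, against 50.6 to 61.6 in MΦ_IFN-γ, and the macrophage markers to 794 to 884 in MΦ_M1, against 710 to 750 in MΦ_IFN-γ. Of the 8 macrophage markers, 2 were called higher and 1 lower in limma. Their median log2 difference was -0.44, so the sum does not stand for the typical marker. Of the 5 monocyte markers, 1 was called higher and 3 lower. The part of either list was not tested.

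In Mreg_+LPS against Mreg, on shared slides, the dependence on scaling was larger. With the 75th percentile 22 members rose and 4 fell (57.1% of all genes changed, 31.4% higher and 25.7% lower), after quantile normalization 6 rose and 12 fell (56.4%), and with no scaling 4 rose and 14 fell (55.5%). The median difference of all genes was 0.16, -0.02 and -0.48 with these 3, and the 75th percentile lay between 338.2 and 364.5 intensity units on the Mreg_+LPS arrays, against 466.8 to 607.5 on the Mreg arrays. The members called in the same direction with both scalings were 6 higher (Ctsz, Mcoln1, Atp6v1a, Npc2, Idua and Ctse) and 4 lower (Gusb, Sgsh, Galc and Fuca1), of which Ctse was turned round with no scaling.

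Ctsz had 9.32, 9.23 and 9.14 in Mreg_+LPS, against 7.46, 8.09 and 7.41 in Mreg. It was 2.99-fold higher (adjusted p = 1.8e-08), a log2 difference of 1.58, and 0.82 after quantile normalization. Mcoln1 had 6.21, 5.75 and 5.92 in Mreg_+LPS, against 4.84, 4.68 and 4.69 in Mreg, 2.34-fold higher (adjusted p = 1.1e-10). Atp6v1a had 4.08, 4.14 and 4.13 in Mreg_+LPS, against 2.77, 3.19 and 2.92 in Mreg, 2.22-fold higher (adjusted p = 4.4e-09). In all 3 genes the lowest Mreg_+LPS array was above the highest Mreg array. Their quantile values were smaller but still called, 0.64 for Mcoln1 and 0.74 for Atp6v1a (log2). Npc2 was 2.10-fold higher and Idua 1.77-fold.

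Sgsh had 0.26, 0.39 and 0.83 in Mreg_+LPS, against 2.27, 1.87 and 2.31 in Mreg, and fell by 1.66 ± 0.22 (SE, log2; adjusted p = 3.1e-07). Gusb had 2.22, 3.00 and 2.49 in Mreg_+LPS, against 4.57, 4.73 and 4.60 in Mreg, and fell by 2.06 ± 0.16 (SE, log2; adjusted p = 3.4e-11). Neither gene overlapped between the groups, but a second Gusb probe differed by only 0.05. Of the other Galc probes, 1 fell by 2.11 and 1 was higher by 0.46, beside a fall of 0.85 in the brightest. Over the called members, 14 of 19 other probes went the same way. The calls of Ctsa, Ctse, Fuca1, Grn, Lgmn and Npc1 were lost without some single array, which leaves 20 of 26. The 8 macrophage markers summed to 633 to 1010 in Mreg_+LPS, against 412 to 609 in Mreg. Of these 8, 3 were called higher and 1 lower in limma, and their part was not tested. The plot of both scalings shows how far each member moved between them.

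**Figure D5:**
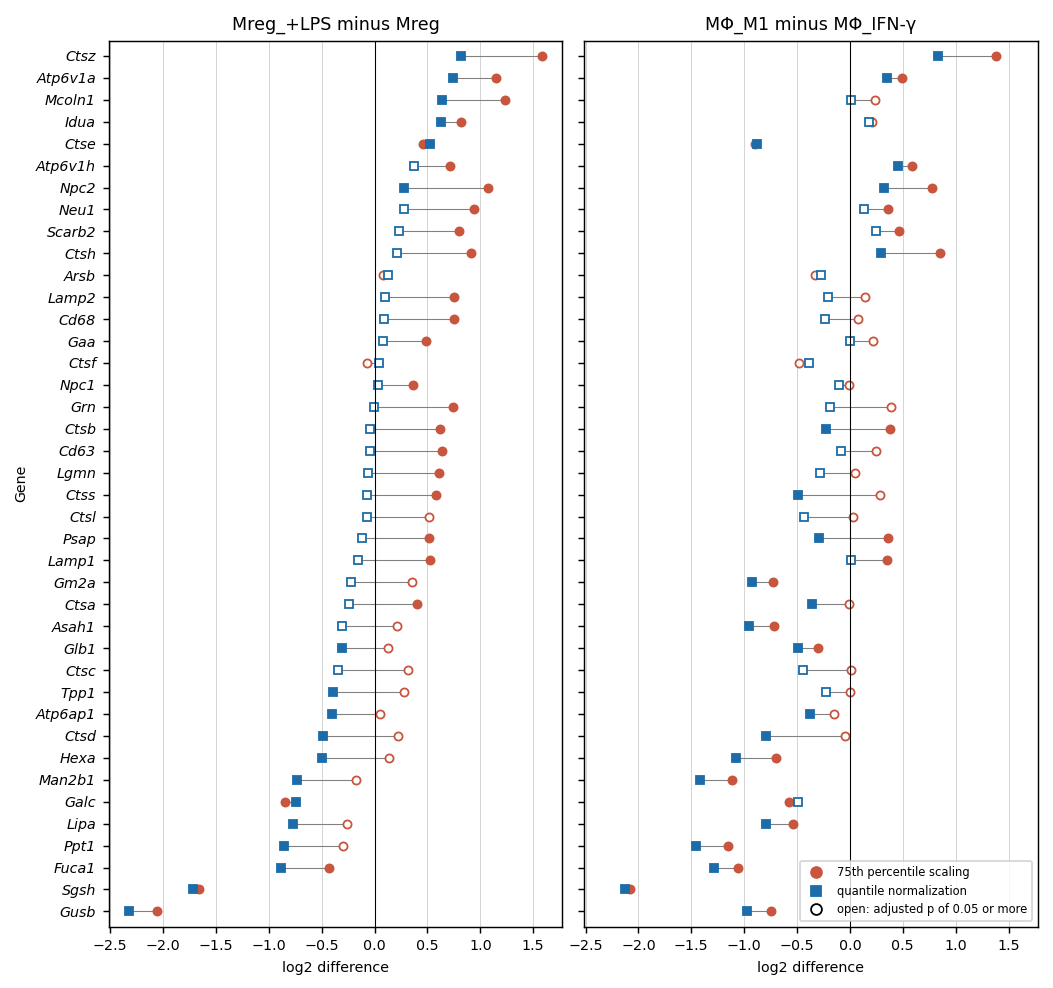
Log2 difference with LPS of each member (rows) in Mreg_+LPS against Mreg (left) and MΦ_M1 against MΦ_IFN-γ (right), with arrays scaled at the 75th percentile (red circles) and quantile normalized (blue squares), filled where adjusted p was under 0.05. Ctsz, Atp6v1a and Npc2 are filled to the right and Sgsh, Gusb and Fuca1 to the left of 0 with both scalings in both panels, while Ctsb and Psap change side.

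The LPS response was tested for a difference between the media in the interaction contrast. The share of members called was close to that of all genes. Of the 40 members, 12 had a more positive response in the Mreg medium and 1 a more negative one, where 34.9% of all genes were called (18.6% higher and 16.3% lower). After quantile normalization 5 and 1 were called, where 34.2% of all genes were called, and with no scaling 4 and 1. Ctse, Mcoln1, Man2b1, Asah1 and Hexa were more positive and Gusb more negative with both of the first 2 scalings. Ctse fell in MΦ_M1, with -4.40, -3.89 and -3.79 against -2.70, -3.46 and -3.21 in MΦ_IFN-γ, and rose in Mreg_+LPS, with -3.78, -4.05 and -4.15 against -4.38, -4.50 and -4.48 in Mreg. The responses differed by 1.36 ± 0.25 (SE, log2; adjusted p = 1.1e-04). Ctse was dim: the dimmest spots well above background on the Mreg_+LPS arrays lay at -4.875, -4.963 and -5.522. Its rise in Mreg_+LPS lost its call without some single array and turned round with no scaling. The difference between the responses was 0.99 for Mcoln1 (adjusted p = 7.5e-06), 0.94 for Man2b1, 0.93 for Asah1 and 0.84 for Hexa. For Gusb it was -1.32 (adjusted p = 6.1e-05).

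With IL-4, the share of members that changed was close to that of all genes. In MΦ_M2a against MΦ_M0, 3 of the 40 members rose and 2 fell, where 12.2% of all genes changed (6.28% rose and 5.87% fell), and after quantile normalization 1 rose and 3 fell (13.1%), with 1 and 2 when not scaled. Ctsz, with 8.67, 8.22 and 8.30 in MΦ_M2a, against 7.72, 7.83 and 7.80 in MΦ_M0, was 1.53-fold higher (adjusted p = 0.021). Sgsh had 2.00, 2.20 and 2.10 in MΦ_M2a, against 3.39, 3.65 and 3.25 in MΦ_M0, and fell by 1.33 (log2; adjusted p = 1.2e-04). Ctsc had 3.82, 3.68 and 3.66 in MΦ_M2a, against 4.71, 4.92 and 4.63 in MΦ_M0, and fell by 1.03 (log2; adjusted p = 0.0026). These 3 were called with both scalings and no groups overlapped, but Ctsz lost its call without 1 of 3 single arrays. The other calls, Atp6v1h and Tpp1, were lost after quantile normalization and without some single arrays, and a dim Atp6v1h probe went the other way (4 of 5 other probes went the same way). The 7 dendritic cell markers summed to 111 to 211 in MΦ_M2a, against 26.1 to 50.3 in MΦ_M0. Of these 7, 3 were called higher and 0 lower in limma, and their part was not tested.

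Dexamethasone mostly raised the members it changed. In MΦ_M2c against MΦ_M0, 12 rose and 1 fell, where 20.3% of all genes changed (10.3% rose and 9.97% fell), and all 13 were also called after quantile normalization (22.3%). Sgsh had 4.82, 4.74 and 4.57 in MΦ_M2c, against 3.39, 3.65 and 3.25 in MΦ_M0, 2.42-fold higher (adjusted p = 1.1e-04). Ctsf, cathepsin F, had -0.16, -0.26 and -0.92 in MΦ_M2c, against -1.48, -1.59 and -1.95 in MΦ_M0, 2.34-fold higher (adjusted p = 9.6e-04). For both genes every MΦ_M2c array lay above every MΦ_M0 array. Lgmn was 1.82-fold higher, Galc 1.66-fold and Ctsh 1.62-fold. Lipa had 4.88, 5.00 and 4.84 in MΦ_M2c, against 5.69, 5.74 and 5.52 in MΦ_M0, and fell by 0.75 (log2; adjusted p = 4.7e-04), without overlap. Ctsf, Ctsh, Lgmn, Sgsh and Lipa held their calls without any single array, while the other 8 did not. Of the other probes 6 of 7 went the same way, the exception belonging to Glb1. The groups lie on different slides. The 8 macrophage markers summed to 997 to 1060 in MΦ_M2c, against 607 to 686 in MΦ_M0, with 2 called higher and 0 lower in limma. The 5 monocyte markers summed to 51.1 to 74.4 in MΦ_M2c, against 8.52 to 11.2 in MΦ_M0, with 2 called higher and 1 lower. The part of either list was not tested. Sgsh thus had its highest group mean, 4.71, in MΦ_M2c and its lowest, 0.49, in Mreg_+LPS.

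The immunoglobulin coating changed 3 members. In MΦ_M2b against MΦ_IFN-γ, 1 rose and 2 fell, where 3.88% of all genes changed (2.14% rose and 1.74% fell). After quantile normalization 1 rose and 4 fell (4.25%), with no scaling 1 rose and 1 fell, and with the replicate number as a block 5 were called. Ctsl had 8.46, 8.73 and 8.80 in MΦ_M2b, against 7.33, 7.74 and 8.03 in MΦ_IFN-γ, 1.95-fold higher (adjusted p = 0.016). Man2b1 had 5.59, 5.29 and 5.22 in MΦ_M2b, against 6.18, 6.15 and 6.03 in MΦ_IFN-γ, and fell by 0.75 (log2; adjusted p = 0.0015). Sgsh fell by 0.80 (adjusted p = 0.036). No group overlapped its counterpart for the 3 genes, which kept their direction on all 3 slides, but Ctsl and Sgsh lost their calls without some single arrays. The 8 macrophage markers summed to 421 to 565 in MΦ_M2b, against 710 to 750 in MΦ_IFN-γ, with 0 called higher and 1 lower in limma. The 5 monocyte markers summed to 82.3 to 130 in MΦ_M2b, against 50.6 to 61.6 in MΦ_IFN-γ, with 0 called higher and 0 lower. The part of either list was not tested.

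Mo-DC, grown in GM-CSF and IL-4, differed from MΦ_IFN-γ in many members and in both directions. Here 15 members rose and 10 fell, where 47.5% of all genes changed (22.0% rose and 25.5% fell). After quantile normalization 13 rose and 12 fell (50.2%), and with no scaling 10 rose and 18 fell. All genes had a median difference of -0.05, -0.14 and -0.35 with these 3. Ctsf had 0.19, 0.26 and 0.21 in Mo-DC, against -2.25, -2.25 and -2.51 in MΦ_IFN-γ, a difference of 2.55 ± 0.26 (SE, log2), or 5.87-fold (adjusted p = 6.1e-09). Lamp2 had levels between 7.92 and 8.03 on the 3 Mo-DC arrays, against 6.42, 6.50 and 6.25 in MΦ_IFN-γ, 3.02-fold higher (adjusted p = 2.1e-08), and its other probes were higher by 1.40 and 2.05 (log2). These are wide gaps beside a spread of at most 0.15 (SD) within each of these groups. Cd63 was 2.13-fold higher, Ctsz 2.11-fold, Tpp1 2.09-fold and Ctsl 2.00-fold.

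Ppt1 had 4.94, 4.52 and 4.56 in Mo-DC, against 6.90, 6.71 and 6.17 in MΦ_IFN-γ, and fell by 1.92 (log2; adjusted p = 2.4e-05). Sgsh had 1.15, 1.27 and 1.74 in Mo-DC, against 2.89, 3.12 and 2.93 in MΦ_IFN-γ, and fell by 1.59 (adjusted p = 1.0e-06). Ctsc had 6.47, 6.11 and 6.21 in Mo-DC, against 7.85, 7.73 and 7.72 in MΦ_IFN-γ, and fell by 1.50 (adjusted p = 4.5e-06). None of these groups overlapped. Hexa fell by 0.98, Lipa by 0.87, Asah1 by 0.82 and Cd68 by 0.72 (log2). All 25 kept their direction on the 3 slides that hold both groups, all 18 other probes went the same way, and 17 held without any single array. The 7 dendritic cell markers summed to 243 to 262 in Mo-DC, against 11.2 to 29.1 in MΦ_IFN-γ. Of these 7, 3 were called higher and 1 lower in limma, with a median log2 difference of 0.56. The 8 macrophage markers summed to 154 to 269 in Mo-DC, against 710 to 750 in MΦ_IFN-γ, with 0 called higher and 6 lower. The part of either list was not tested.

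Few members differed detectably with unsorted starting cells. In Mreg_unpurified against Mreg, 2 members rose and 0 fell, where 11.8% of all genes changed (6.42% rose and 5.34% fell). Gusb had 5.06, 5.75 and 4.93 in Mreg_unpurified, against 4.57, 4.73 and 4.60 in Mreg, 1.53-fold higher (adjusted p = 0.015), and Cd68 had 6.72, 7.12 and 6.68 in Mreg_unpurified, against 6.38, 6.35 and 6.23 in Mreg, 1.43-fold higher (adjusted p = 0.031). Neither overlapped, but both calls were lost without Mreg_unpurified replicate 2 and also without Mreg replicate 3, and that of Cd68 also without Mreg replicate 1 or 2. After quantile normalization limma called 0 members, with 2 (Gusb higher, Scarb2 lower) at an unadjusted p under 0.05 (10.9% of all genes called). With the replicate number as a block 5 were called. The 5 erythroid and megakaryocyte markers summed to 73.1 to 422 in Mreg_unpurified, against 54.0 to 71.4 in Mreg. Of these 5, 1 was called higher and 0 lower in limma, and their part was not tested.

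Of the 54 further lysosomal genes, 9 rose and 17 fell in MΦ_IFN-γ against MΦ_M0, where 22.0% of all genes changed, and 2 rose and 13 fell in Mreg against Mreg_no IFN-γ, where 20.2% of all genes changed. With dexamethasone 14 rose and 2 fell, where 20.3% of all genes changed. Across the 12 group means, Ctsc and Ppt1 had a correlation of 0.90, while the median correlation with the other members was -0.78 for Ctse and -0.52 for Arsb. Over the 11 cultured groups the median was -0.37 for Ctse (-0.10 after quantile normalization), and for Arsb it turned to 0.41 (0.42), so that its opposite course rests on Monocytes.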

How the data were processed

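Gene expression was measured on 36 one-colour Agilent arrays, 3 for each of 12 groups, with groups taken from the sample labels. Each deposited scanner file holds a background-subtracted intensity per spot, per the file headers. The deposited series table holds log2 values whose normalization is not stated; they correlated with log2 of the scanner intensities at 0.9974 or more on each array, and their quantiles were nearly equal across arrays.

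Intensities were taken as log2 and reduced by log2 of the array's 75th percentile over non-control spots. Spots marked as non-uniform or as outliers counted as missing, the mean was taken over repeats of a probe, and probes well above background on at least 3 arrays were kept (26460 probes). The brightest probe stood for a gene, which gave 18089 genes. Of 41174 non-control probes, 24375 were named through an accession, 6301 through a symbol and 10498 kept the name in the files. All 12 group means were fitted to all arrays with limma 3.58.1 in R 4.3.3, and differences with a Benjamini-Hochberg adjusted p under 0.05 over all genes were called. The fit was also tested on simulated data. Tables and figures were made with Python 3.11.15, pandas 2.3.3 and matplotlib 3.10.9.

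The 40 members, the gene and marker lists and the tests were chosen with earlier results of these data known. The rule for named genes allowed all 40 members, grouped by role, and few genes outside them, of which only counts are given. Alternatives were quantile normalization, normexp with an offset of 50, no filter on dim probes or one of 18 arrays, averaging a gene's probes, the series table, slide, scan day or replicate number as a block, only the compared groups, each array left out, and, chosen after seeing the data, no scaling between arrays. Replicate numbers come from the labels and share a slide within each block of groups. Deviations from group means of same-numbered arrays correlated above 0.1 in every pair in 7 of 13 comparisons (0.10 to 0.56 there). No 2 arrays held the same values (highest correlation 0.9929). The number of arrays limits the precision. Sequences of promoters are those of RefSeq, and 6 members had no entry.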

Additional observations from a re-analysis of the deposited data

Results flagged for a closer look

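The response to LPS differed between the media for 13 members by the interaction contrast of limma, that is, Mreg_+LPS minus Mreg, less MΦ_M1 minus MΦ_IFN-γ, on the log2 scale. The 12 with a more positive response in the Mreg medium were Ctse (1.36), Gm2a (1.08), Mcoln1 (0.99), Man2b1 (0.94), Asah1 (0.93), Hexa (0.84), Cd68 (0.67), Atp6v1a (0.66), Fuca1 (0.63), Idua (0.61), Neu1 (0.58) and Glb1 (0.43). Gusb had a more negative response (-1.32). The share of all genes called in this contrast was 34.9%, and the members' share was not above it. After quantile normalization 6 members were called, a share below that of all genes (34.2%). These 6 were Ctse, Mcoln1, Man2b1, Asah1, Hexa and Gusb. In addition, 6 of the 13 (Cd68, Fuca1, Glb1, Gm2a, Idua and Neu1) lost their call without some single array. The MΦ arrays lay on other slides than each other and than the Mreg arrays. With the slide as a random block, 13 members had a more positive response and 1 a more negative one. The part of the slides was not otherwise tested. A second probe of Gusb differed by 0.05 in Mreg_+LPS against Mreg, where the brightest fell by 2.06.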

How the results depend on the processing

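Over the comparisons and the LPS interaction, 244 differences of members were called. All 244 were called in the same direction with the replicate number as a block, with scan day as a block and with a filter of 18 arrays, 242 with the slide as a random block, 224 with no filter, 216 with the mean of all probes, 211 with only the compared groups, 204 with normexp, 200 after quantile normalization or in the series table, and 182 with no scaling. With the slide as a fixed block all 110 that could be fitted held. Directions turned in MΦ_M1 against MΦ_IFN-γ for Ctsb (-0.23 after quantile normalization and in the series table, -0.27 with the mean of all probes, -0.01 with no scaling), Psap (-0.29, -0.29 in the table and -0.03 with no scaling), Neu1 (-0.02 with no scaling) and Lamp1 (-0.03). In Mreg_+LPS against Mreg they turned, after quantile normalization and in the table, and then with no scaling, for Ctsb (-0.04, -0.04, -0.02), Ctss (-0.07, -0.07, -0.05), Lgmn (-0.06, -0.06, -0.03), Ctsa (-0.24, -0.24, -0.23), Psap (-0.12, -0.12, -0.13) and Lamp1 (-0.16, -0.16, -0.12), with the first 2 settings only for Grn (-0.01, -0.01) and Cd63 (-0.04, -0.04), and with no scaling only for Ctse (-0.18), Gaa (-0.14) and Npc1 (-0.27). In Mo-DC against MΦ_IFN-γ they turned for Ctsd (-0.04 after quantile normalization and in the table), Gaa (-0.03 with no scaling) and Ctse (0.00 with normexp), and in the LPS interaction for Glb1 (-0.08 with the mean of all probes). The cause was not tested. Counts of called members moved by over 1.5 times in few comparisons. MΦ_M2a against MΦ_M0 had 5, but 9 with normexp, 8 with the slide as a fixed block and 3 with no filter, with only the compared groups or with no scaling. MΦ_M2c against MΦ_M0 had 13, but 7 with no scaling. MΦ_M2b against MΦ_IFN-γ had 3, but 5 after quantile normalization, in the table or with the replicate block, and 6 with the slide as a random or fixed block. Mreg_unpurified against Mreg had 2, but 0 after quantile normalization, with normexp, in the table, with only the compared groups or with no scaling (at an unadjusted p under 0.05 in limma 2, 6, 2, 4 and 5), 1 with no filter, 4 with the mean of all probes or scan day, 5 with the replicate block and 6 with the slide as a random or fixed block. The IFN-γ interaction had 0, but 1 with the replicate block or scan day. The LPS interaction had 13, but 6 after quantile normalization or in the table, 7 with only the compared groups and 5 with no scaling. The replicate block lost no call. With single arrays left out, the counts were 34 to 35 for MΦ_M0 and 35 to 36 for Mreg_no IFN-γ against Monocytes, 9 to 12 for Mreg_no IFN-γ and 14 to 17 for MΦ_IFN-γ against MΦ_M0, 12 to 17 for Mreg against Mreg_no IFN-γ, 14 to 18 for Mreg, 17 to 23 for MΦ_M1, 1 to 3 for MΦ_M2b and 20 to 22 for Mo-DC against MΦ_IFN-γ, 23 to 27 for Mreg_+LPS and 0 to 4 for Mreg_unpurified against Mreg, 2 to 4 for MΦ_M2a and 8 to 12 for MΦ_M2c against MΦ_M0, 9 to 15 for the LPS interaction and 0 to 0 for the IFN-γ interaction. All members were well above background on all arrays, with 1 value missing.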
